A study of Mus musculus with 3 samples.

Results

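The genes described here are 5 that red cells and their precursors use: the globins Hbb-y and Hba-a2, the heme synthesis enzymes Alas2 and Fech, and the membrane protein Slc4a1. They were listed by name from earlier results of these data and are 5 of the 18193 genes measured. They had 12 probe sets of their own, of which 9 passed the floor defined below on at least 1 array. Another 4 probe sets were shared between adult globin genes.

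RNA came from olfactory epithelium of Tgn1-2G transgenic mice of both sexes, aged 5 to 8 postnatal days. Cells were sorted by fluorescence into strongly GFP positive cells (GFP+++, 1000000 cells), weakly GFP positive cells (GFP+, 1300000 cells) and GFP negative cells (GFP-, 6800000 cells). By the submitters' account GFP+++ was enriched in immature neurons, GFP+ slightly in mature neurons, and GFP- held all cell types with immature neurons depleted. All 3 fractions carried the transgene, which is known from other work to place GFP under control elements of Neurog1, a gene of neuronal progenitors, and no sample without it was compared. Every fraction also carries the number 32 in its labels, which may count pooled mice. With 1 array for each fraction, nothing measures replicate error and nothing could be tested. Every fold therefore describes these arrays only.

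Hemoglobin is a tetramer of alpha-type and beta-type globin chains, each of which holds a heme. Hbb-y encodes an embryonic beta-type globin of the primitive red cells that form in the yolk sac, and adult-type globins replace it during gestation. Alas2 is the red cell form of the first enzyme of heme synthesis, and Fech inserts iron in the last step in every cell that makes heme. Slc4a1 (band 3) exchanges chloride and bicarbonate across the red cell membrane and anchors its skeleton.

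In the RefSeq gene order, Hbb-y lies at one end of the beta-globin cluster of chromosome 7, next to the embryonic Hbb-bh1, with the adult genes Hbb-bs and Hbb-bt at the other end. Hba-a1 and Hba-a2 are the duplicated adult alpha-globin genes of chromosome 11. Over their 300-base start regions they shared an identical run of 297 bases, a measure of how alike the copies are. The 250 bases before the start of the embryonic Hbb-y, of an adult beta-globin gene (Hbb-bs), of Hba-a2 and of Alas2 are shown because Hbb-y ran opposite to Alas2 and to the shared adult globin probe sets. Hbb-bs was read only through a shared probe set. Capitals mark matches to 4 short motifs, spelled out after the sequences, in either orientation. The windows are from RefSeq, build GRCm38.p6, and are chr7:103853208-103853457 (minus strand) for Hbb-y, chr7:103827929-103828178 (minus strand) for Hbb-bs, chr11:32296242-32296491 (plus strand) for Hba-a2 and chrX:150547167-150547416 (plus strand) for Alas2.
Hbb-y: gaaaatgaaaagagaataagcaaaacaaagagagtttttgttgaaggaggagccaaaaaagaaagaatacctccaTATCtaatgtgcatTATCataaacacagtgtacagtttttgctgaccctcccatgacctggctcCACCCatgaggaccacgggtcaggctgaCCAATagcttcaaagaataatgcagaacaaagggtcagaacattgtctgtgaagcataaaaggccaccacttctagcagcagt
Hbb-bs: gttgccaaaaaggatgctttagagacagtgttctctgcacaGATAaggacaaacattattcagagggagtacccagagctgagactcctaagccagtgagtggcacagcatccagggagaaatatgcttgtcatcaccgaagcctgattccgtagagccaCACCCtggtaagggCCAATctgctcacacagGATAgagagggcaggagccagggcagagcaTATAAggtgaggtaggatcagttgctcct
Hba-a2: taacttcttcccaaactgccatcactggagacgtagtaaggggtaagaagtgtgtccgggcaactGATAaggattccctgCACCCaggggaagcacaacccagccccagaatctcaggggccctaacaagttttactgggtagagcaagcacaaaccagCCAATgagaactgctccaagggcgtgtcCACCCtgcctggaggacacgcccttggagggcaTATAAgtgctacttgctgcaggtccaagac
Alas2: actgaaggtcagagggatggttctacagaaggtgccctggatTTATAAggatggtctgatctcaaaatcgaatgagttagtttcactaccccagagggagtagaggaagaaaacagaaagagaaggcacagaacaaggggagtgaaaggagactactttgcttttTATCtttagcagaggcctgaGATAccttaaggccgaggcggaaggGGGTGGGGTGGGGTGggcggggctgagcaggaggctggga

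The letters GATA, read by the GATA factors, stood in all 4 windows: 2 times in Hbb-y, 2 times in Hbb-bs, 1 time in Hba-a2 and 2 times in Alas2. Of all 32851 windows of this length, 53.6% hold these letters on either strand. CACCC, the core read by Klf1 and related factors, stood 1 time in Hbb-y, 1 time in Hbb-bs, 2 times in Hba-a2 and 3 times in Alas2, against 52.0% of all windows with at least 1. The letters CCAAT were found in the 3 globin windows and in 33.8% of all windows. TATAA was found in Hbb-bs, Hba-a2 and Alas2 and in 22.8% of all windows. In Alas2 its matches on the 2 strands overlap, and no other motifs do. The matches are letters in these windows and nothing more.

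Signals are MAS5 intensities on a linear scale, comparable between arrays for 1 probe set but not between probe sets. Signals below 104, the pooled median of all probe sets, were raised to that floor before a fold was taken. Where 1 array lay under it, a fold is given as at least that size. A gene counted as higher or lower from 2-fold. The letters ending a probe set's name mark its binding: _x_at and _s_at probe sets may bind several transcripts, and _a_at ones bind alternative transcripts of a gene. The pooled SD of log2 folds among probe sets of a gene, the only error that could be estimated, was 0.30 for GFP+++ against GFP-, 0.24 for GFP+ against GFP- and 0.30 for GFP+++ against GFP+. Differences between animals and between sorts are not part of it.

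The 5 genes did not run together. The embryonic globin Hbb-y was highest in GFP+++ and lowest in GFP-, while Alas2, Fech, Slc4a1 and the shared adult globin probe sets were lowest in GFP+++. By the 2-fold rule, 1 of the 5 genes was higher in GFP+++ against GFP- and 3 were lower, where 1.92% and 12.4% of all 12235 genes compared were. These genes were chosen on this contrast, so the counts are a description. In GFP+ against GFP-, 0 were higher and 1 lower (0.607% and 0.804% of 12196 genes), and in GFP+++ against GFP+ 1 was higher and 2 lower (0.985% and 9.34% of 11881 genes). All 3 comparisons draw on the same 3 arrays. In sorted fractions, fewer cells of a type and less RNA per cell cannot be told apart.

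**Figure D1:**
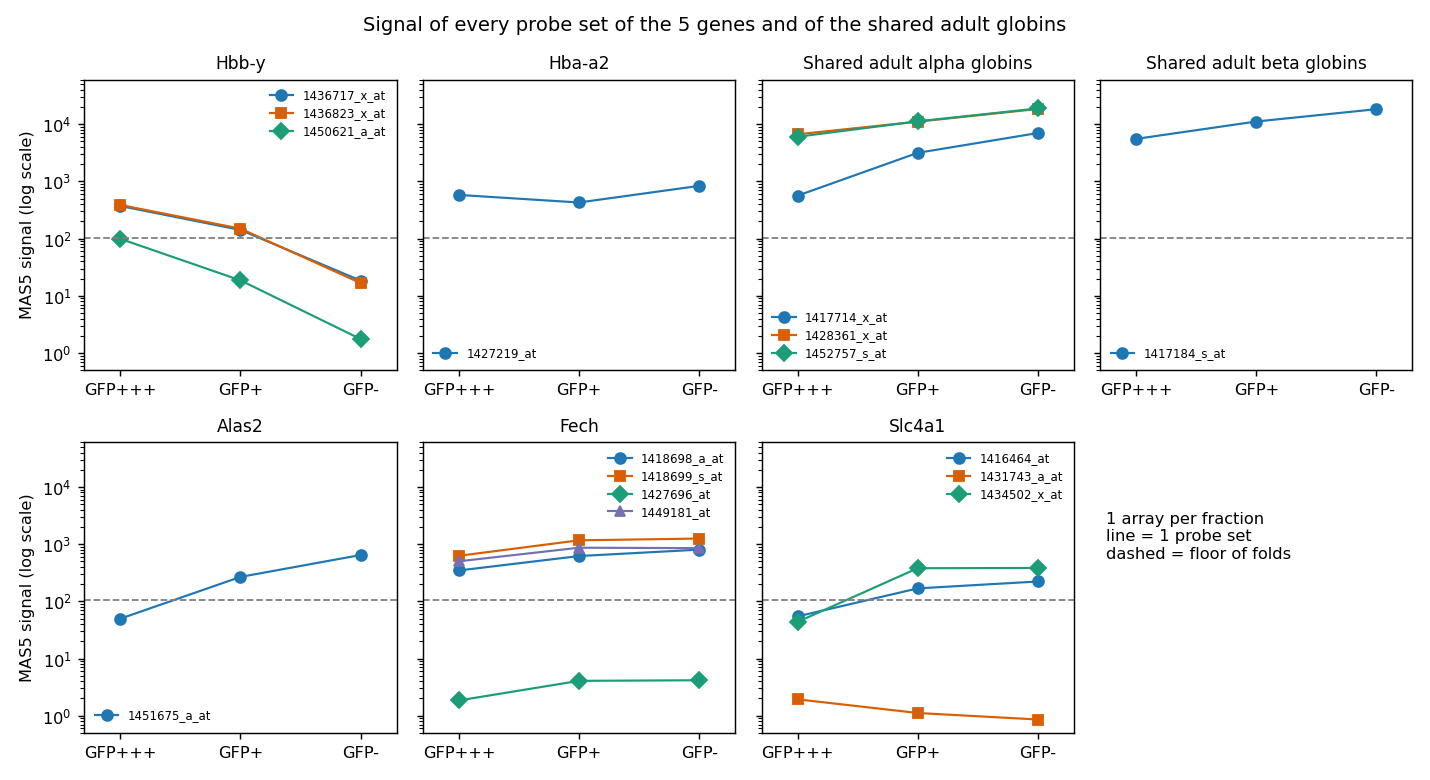
MAS5 signal (log axis) of every probe set of the 5 genes and of the probe sets shared by adult globin genes, on the 1 array of each fraction, with a line per probe set and the floor of 104 dashed. All 3 Hbb-y lines fall from GFP+++ to GFP-, while the shared adult globins and Alas2 rise.

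Hbb-y had 3 probe sets, and all fell in the order GFP+++, GFP+, GFP-. The brightest, 1436823_x_at, read 388 in GFP+++, 150 for GFP+ and 16.7 for GFP-. The second, 1436717_x_at, gave 372, 142 and 18.4 in the same order. In both, GFP+++ and GFP+ lay above the floor and GFP- far below it. The excess of GFP+++ over GFP- was thus at least 3.71-fold by the brightest probe set and at least 3.57-fold by the second. Against GFP+ it was 2.59-fold and 2.62-fold higher in GFP+++, measured on both arrays. GFP+ was at least 1.43-fold and at least 1.36-fold above GFP-, short of the 2-fold rule. The third probe set, 1450621_a_at, stayed under the floor on all 3 arrays, at 99.1, 18.6 and 1.75, and gives no fold. It is also the only Hbb-y probe set without an _x_at or _s_at ending. With the floor raised to 276, the 65th percentile, the log2 fold over GFP- was a bound of 0.49 and no longer passed 2-fold.

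The other embryonic globins did not pass the floor on any array. Hba-x, the embryonic alpha-type chain, read 3.82 in GFP+++, 6.25 for GFP+ and 3.82 for GFP-. Hbb-bh1, the embryonic beta-type neighbour of Hbb-y, gave 34.5, 31.5 and 12.1 on the brightest of its 3 probe sets. So the embryonic signal above the floor was that of Hbb-y alone among the globins measured here.

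The 4 probe sets shared by adult globin genes were lower in GFP+++, and 3 of them gave signals near the top of the range in GFP-. Probe set 1417184_s_at carried the adult beta-globin symbols Hbb-bt, Hbb-bs, Hbb-b2 and Hbb-b1, of which the RefSeq gene order held only Hbb-bt and Hbb-bs. It read 5545 in GFP+++, 11162 for GFP+ and 18342 for GFP-. It was 3.31-fold lower in GFP+++ than in GFP-, the opposite direction to Hbb-y on the same arrays. By signal, which is not a rank of RNA level, it was 18th of the array in GFP- and 1109th in GFP+++. Of the 3 probe sets shared by Hba-a1 and Hba-a2, 1428361_x_at gave 6673, 11095 and 18497 in the same order and 1452757_s_at gave 6038, 11225 and 18882. They were 2.77-fold and 3.13-fold lower in GFP+++ than in GFP-, and ranked 16th and 12th in GFP-, where the brightest signal of all was 23339. The third shared alpha-globin probe set, 1417714_x_at, was dimmer, at 563, 3159 and 7015, and its difference was 12.4-fold. The 3 probe sets read the same gene pair, gave the same order of fractions and differed in size. Whether the brightest signals were compressed near the top of the range was not tested.

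Hba-a2 also had 1 probe set of its own, 1427219_at, and it did not follow the shared ones. It read 581 in GFP+++, 428 for GFP+ and 837 for GFP-, so that GFP+ and not GFP+++ was the lowest. Against GFP-, it was 1.44-fold lower in GFP+++ and 1.95-fold lower in GFP+, both within 2-fold. Its log2 fold of GFP+++ against GFP- was -0.53, where the shared probe sets had a median of -1.64 and ranged from -3.64 to -1.47. The difference from that median was 1.12. The pooled probe set SD of 0.30 does not show how far these shared probe sets differ among themselves. In GFP+++ against GFP+ the probe set of Hba-a2 alone was at 0.44 and the median of the shared ones at -0.89. The shared values belong to the pair Hba-a1 and Hba-a2 and cannot be given to either gene. Of the other adult globin symbols with a probe set of their own, Hba-a1 stayed at or under 12.7 on every array. The brighter of 2 Hbb-b2 probe sets gave 2.42, 44.8 and 115 in the order GFP+++, GFP+, GFP-.

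**Figure D2:**
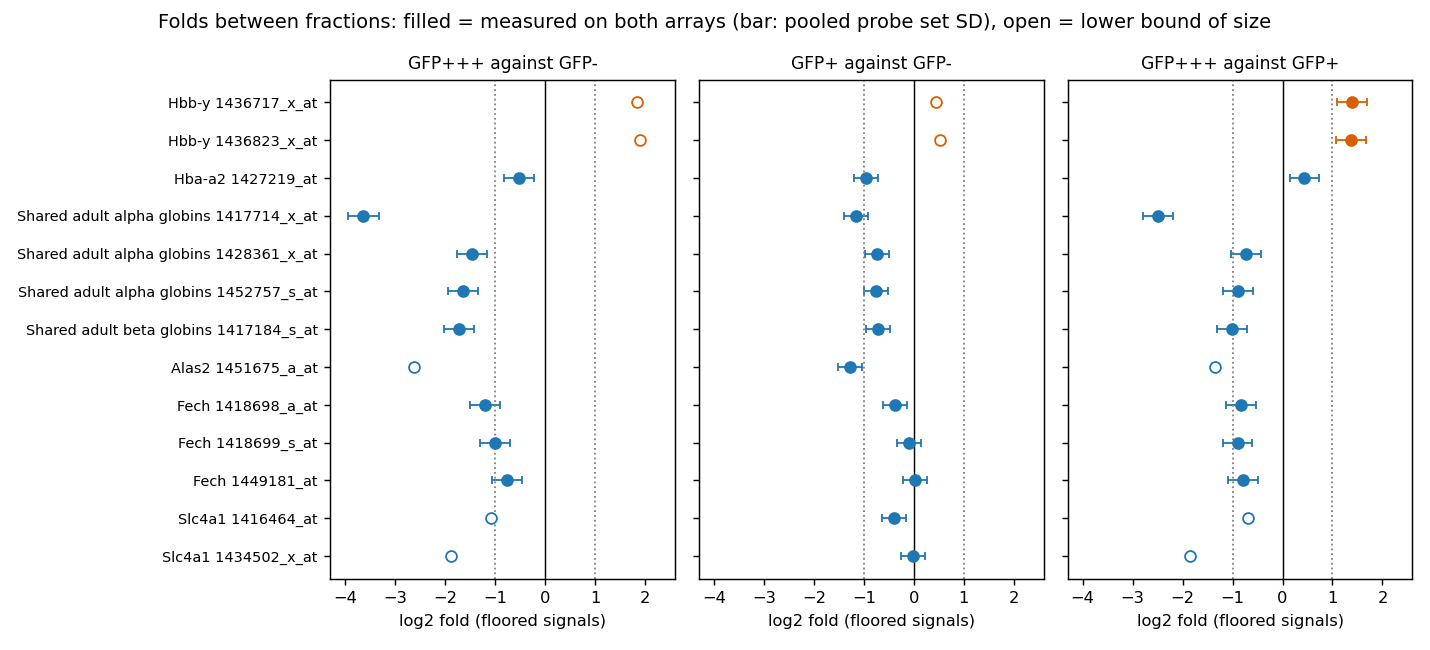
Log2 fold of each probe set above the floor on at least 1 array, in the 3 comparisons, with filled points measured on both arrays (bar: pooled probe set SD), open points for bounds and dotted lines at 2-fold. Both Hbb-y probe sets lie to the right of 0 throughout, and all 4 shared adult globin probe sets to the left.

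Alas2 rose stepwise through the fractions. Its 1 probe set read 49.7 in GFP+++, 267 for GFP+ and 645 for GFP-. GFP+++ lay under the floor, at least 6.18-fold below GFP- and at least 2.56-fold below GFP+. GFP+ was in turn 2.41-fold below GFP-, measured on both arrays, and Alas2 was the 1 gene of the 5 called between these fractions. The bound of Hbb-y leaves its size there unknown, and Hba-a2 passed 2-fold with quantile normalization (log2 -1.03).

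Fech had 3 probe sets above the floor and 1 under it on all arrays. The brightest, 1418699_s_at, read 625 in GFP+++, 1166 for GFP+ and 1252 for GFP-, which made it 2.00-fold lower in GFP+++ than in GFP-, at the edge of the rule. The other probe sets above the floor gave 2.31-fold (346 against 801) and 1.70-fold (501 against 851) lower. All 3 were thus lower in GFP+++, and 2 of them reached 2-fold. Between GFP+ and GFP- they differed little, from 1.30-fold lower to 1.02-fold higher in GFP+. With each array scaled by its median the log2 fold of GFP+++ against GFP- was -0.59, and relative to the median of all genes it was -1.0 with either scaling.

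Slc4a1 had 2 probe sets above the floor in GFP+ and GFP-, and neither in GFP+++. The brightest, 1434502_x_at, read 43.7 in GFP+++, 379 for GFP+ and 383 for GFP-. GFP+++ was below GFP- by at least 3.67-fold and below GFP+ by at least 3.63-fold, while GFP+ and GFP- were 1.01-fold apart. The other, 1416464_at, gave 54.5, 168 and 222, which put GFP+++ below GFP- by at least 2.13-fold and GFP+ below it by 1.32-fold. So by their brightest probe sets Slc4a1 and Fech were near their GFP- level in GFP+. By another probe set of each they were 1.32-fold and 1.30-fold lower. Alas2, 2.41-fold lower in GFP+, and the shared adult globins, 1.64-fold to 2.22-fold lower, lay further below GFP-. The probe set of Slc4a1 under the floor, 1431743_a_at, did not exceed 1.93. With the floor at 276, Slc4a1 no longer passed 2-fold.

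Set against each of the others, Hbb-y stood apart in the same direction. Its log2 fold of GFP+++ against GFP- exceeded that of Hba-a2 by at least 2.42, of Fech by at least 2.90, of Slc4a1 by at least 3.77 and of Alas2 by at least 4.52. Over the shared adult beta-globin probe set the excess was at least 3.62. In GFP+++ against GFP+, where Hbb-y was measured on both arrays, the excess over that probe set was 2.38, and over Hba-a2 0.93. Each difference is between changes within the same pair of arrays and not between levels of the genes.

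**Figure D3:**
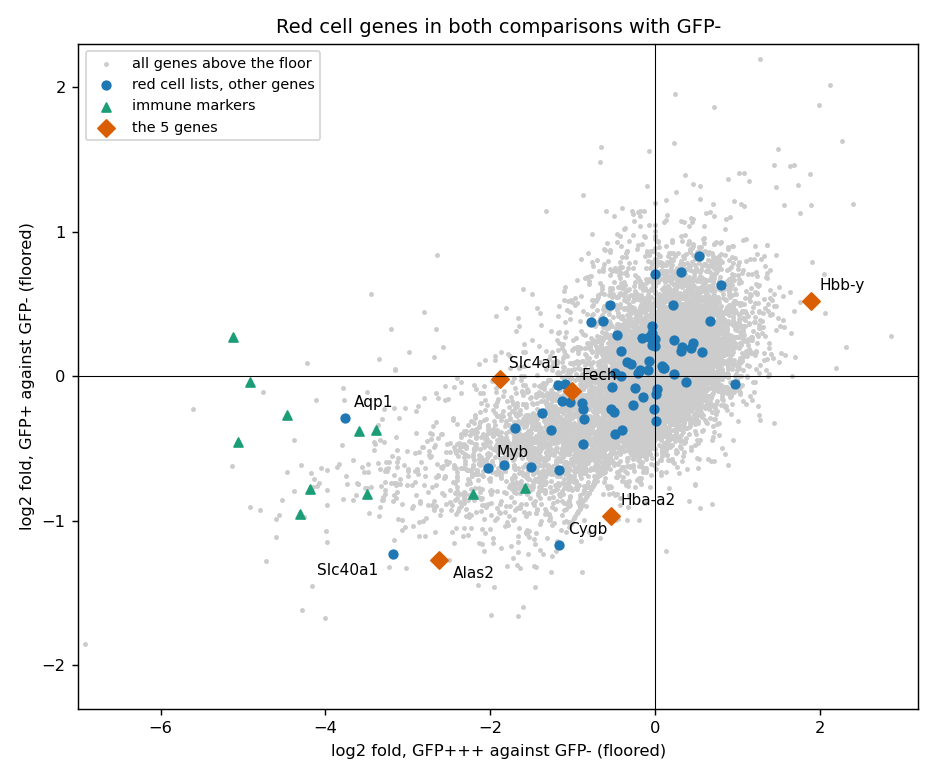
Log2 fold of GFP+++ against GFP- (horizontal) and of GFP+ against GFP- (vertical), both on floored signals and sharing the GFP- array, for all genes above the floor (grey, 7 outside the axes), genes of the red cell lists, immune markers and the 5 genes. Hbb-y lies right of 0 at 1.89, and Alas2 lies low on both axes near Slc40a1.

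Other genes of the same pathways, from 7 lists of red cell genes, were mostly within 2-fold. Without the 5 genes, 65 were compared in GFP+++ against GFP-, of which 0 were higher by the 2-fold rule and 14 (21.5%) lower, beside 1.92% and 12.4% of all genes. Their median log2 fold was -0.27, against 0.01 for all genes. With the 5 genes included the split was 17 lower and 1 higher, which became 9 and 4 with median scaling. In GFP+ against GFP-, 2 of 68 (2.94%) were lower, Slc40a1 and Cygb, and 0 higher, beside 0.804% and 0.607% of all genes. In GFP+++ against GFP+, 11 of 66 (16.7%) were lower and 1 (1.52%), Mb, was higher, beside 9.34% and 0.985%. The counts by list that follow are for GFP+++ against GFP-, where 1.92% of all genes were called higher and 12.4% lower.

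Among other globins, Cygb, a globin of fibroblasts and other cells, was lower in GFP+++ by at least 2.24-fold against GFP-. The muscle globin Mb was near but under 2-fold higher in GFP+++ (212 against 108), and Ngb and Adgb stayed under the floor on every array. Of 13 heme synthesis genes compared, 6 lay above 0 and 7 below, and Alas2 and Fech were the 2 past 2-fold. Alas1, the form of the first enzyme that most tissues use, was at -0.86, Alad, the second enzyme, at -0.88, and Urod at -0.18, while the transporter Slc25a39 was at 0.09. Alas1 was thus above the floor on every array, unlike Alas2.

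In heme breakdown and export, 2 of 7 genes were lower: the biliverdin reductase Blvrb (2.04-fold) and the transporter Abcg2 (at least 2.25-fold). The heme oxygenase Hmox2 was at 0.44, the heme transporter Slc48a1 at 0.22 and the heme exporter Flvcr1 at -0.07. In iron handling, 3 of 10 were lower: the iron exporter Slc40a1 (at least 9.09-fold), the mitochondrial iron importer Slc25a37 (2.58-fold) and the iron-responsive aconitase Aco1 (2.19-fold). The ferritin chain Fth1 was at -0.40, the transferrin receptor Tfrc at -0.50 and Ireb2 at 0.38.

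Of 12 membrane and skeleton genes compared, 4 were lower and 0 higher. Besides Slc4a1 these were the water channel Aqp1 (at least 13.5-fold), the nucleoside transporter Slc29a1 (3.24-fold) and the actin-capping Tmod1 (2.24-fold). The adducins Add2 and Add1 were at 0.67 and 0.33, Cd47 at 0.10 and Dmtn at 0.31. Several of these genes are known from other cells too, Aqp1 from endothelium and Add2 from neurons. Of 13 late erythroid genes and enzymes, 4 were lower and 0 higher: Cat (3.56-fold), Tent5c (2.83-fold, with its other probe set the other way), Isg20 (at least 2.40-fold) and Hemgn (at least 2.13-fold). Prdx2, Mkrn1, Xpo7 and Bpgm lay between -0.27 and 0.23.

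Of 15 genes of erythroid transcription and signalling, 4 were above the floor in GFP+++, 11 in GFP+ and 10 in GFP-. Beside them, 10734, 11674 and 12031 of all 18193 genes were above it, in the same order. Gata1, a main regulator of red cell precursors, lay under the floor on all arrays, at 33.3 in GFP+++, 84.7 for GFP+ and 58.0 for GFP-. Klf1, the activator of adult beta-globin, gave 11.2, 132 and 107 in the same order. Nfe2 gave 3.0, 114 and 110, Tal1 34.5, 175 and 143, and Gfi1b 72.9, 136 and 107. These 4 factors were under the floor in GFP+++ and above it in GFP+ and GFP-, by little for Klf1, Nfe2 and Gfi1b in GFP-. Lmo2, a partner of these factors, gave 1079, 1266 and 1247, above it on every array. Myb, a factor of blood and other progenitors, was the 1 gene of 10 compared past 2-fold, at 4.08-fold lower, with Bcl11a at 0.02, Jak2 at 0.32 and Lmo2 at -0.21. Among other red cell genes, Hemgn (11, 215 and 223), Rhd (49.8, 157 and 139) and Trim10 (45.1, 148 and 146) also passed the floor in GFP+ and GFP- but not in GFP+++. Many others did not: Rhag, Ermap and Epor passed it in GFP+ only. Sptb, Epb42, Gypc, Kel, Xk, Icam4, Car1, Pklr, Tspo2 and Slc38a5 stayed under it on all arrays.

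Markers of other cell types were read on the same arrays. All 11 immune markers above the floor passed the 2-fold rule as lower in GFP+++ against GFP-, at a median log2 fold of -4.19. They were Csf1r, S100a8, S100a9, Lyz2, C1qa, C1qb, Fcer1g, Ptprc, Tyrobp, Cd68 and Aif1, from -1.58 for Aif1 to -5.12 for S100a9, both bounds. Their signals summed to 803 in GFP+++, 19841 for GFP+ and 24299 for GFP-. Itgam was under the floor throughout. Of 8 endothelial markers 2 were lower, Cldn5 and Esam, with summed signals of 637, 1574 and 2070, and Flt1 and Tie1 under the floor on all arrays. Of 3 platelet markers 1 was lower, Pf4, with sums of 432, 899 and 1304, and Ppbp, Gp9, Gp6, Treml1 and Tubb1 under the floor. The 11 olfactory neuron markers, all above the floor on every array, summed to 80906, 80920 and 75925. Such sums lean on the brightest probe sets and do not measure shares of cells. Here they also hide opposite changes, as 6 markers lay above 0 in GFP+++ against GFP- and 5 below. The log2 folds ran from 1.07 for Crmp1, with Gap43 at 0.81 and Gng8 at 0.66, to -0.60 for Adcy3 and -0.62 for Omp. Only Crmp1 passed 2-fold as higher in GFP+++, and 0 as lower. Against GFP+, 3 of the 11 (27.3%, beside 9.34% of all genes) were lower in GFP+++ and 0 higher. They were Omp, Adcy3 and Cnga4, genes of mature neurons, at log2 folds of -1.07, -1.05 and -1.18. The part of these cell types in the results above was not tested. Between GFP+ and GFP-, 0 of 11 immune markers passed 2-fold, where 0.607% of all genes were higher and 0.804% lower. Their median log2 fold was -0.45, and they ranged from -0.95 for C1qa to 0.27 for S100a9. In the same comparison Alas2 was at -1.27 and the shared adult beta globins at -0.72. The 2 probe sets of Slc4a1 above the floor were at -0.02 and -0.40. Of these red cell values, all but that of Alas2 lay within the immune range.

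The genes whose pattern over the 3 arrays lay nearest to each of the 5, among 11807 others, were found by distance. Nearness is the Euclidean distance of floored log2 signals centred on their mean, and with 3 arrays many genes lie close by. Nearest to Hbb-y were Cbln1 (439, 185 and 130), Mthfs and Dcc, a netrin receptor, at distances of 0.10 to 0.14. Nearest to Alas2 were Cyp1a1, Cnr1 and Itpripl2, at 0.10 to 0.18, and to Slc4a1 Max, Cebpd and Cp, at 0.0087 to 0.023. Nearest to Fech were Efr3a, Efcab1 and Ppt2, at 0.0036 to 0.0092, and to Hba-a2 Rpgrip1, Celf3 and Zfp420, at 0.015 to 0.062. Among the 5 genes the closest pair was Fech and Slc4a1, at 0.75, and the farthest Hbb-y and Alas2, at 3.22.

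**Figure D4:**
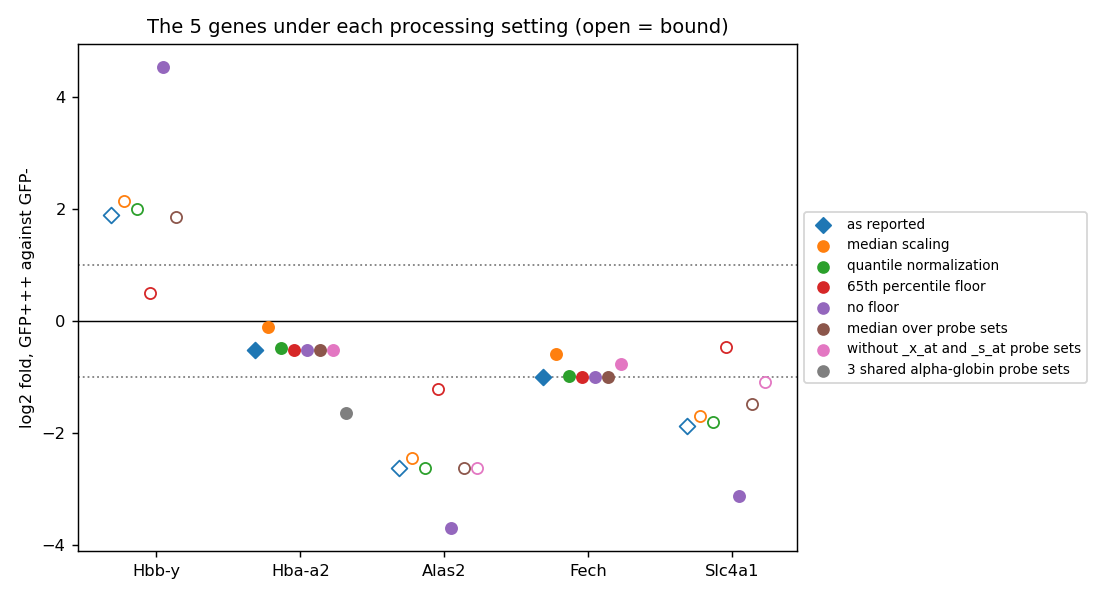
Log2 fold of GFP+++ against GFP- of the 5 genes as reported (diamonds) and under each other processing setting (circles), with open symbols for bounds and dotted lines at 2-fold. Hbb-y lies above 0 in all 5 other settings that gave a value, and Alas2 lies below -1 in all 6.

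Over these settings Hbb-y ranged from a bound of 0.49 to 4.53 and Slc4a1 from -3.13 to a bound of -0.47. Fech ranged from -1.0 to -0.59. In 3 settings its value was the same, and in the 3 that changed it, median scaling (-0.59), quantile normalization (-0.98) and leaving out _x_at and _s_at probe sets (-0.76), it no longer passed 2-fold. Hba-a2 was at -0.11 with median scaling, and the probe sets shared with Hba-a1, drawn beside it, had a median of -1.64.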

How the data were processed

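The authors' deposited values are signal intensity values made with MAS5, per the submitters' processing notes, 1 per probe set on a linear scale. For its version and settings, the sources used here give nothing. On every array the deposited intensity had a 2% trimmed mean of 500.002, so 1 scaling factor per array is all that sets them level, and no detection calls were used. The platform annotation gave 1 gene symbol to 34958 of 45101 probe sets, several to 932 and none to 9211. Of the former, 34754 matched RefSeq (GRCm38.p6) by Entrez identifier, with 0 symbols changed. The 64 control probe sets were left out. Shared globin probe sets are given as shared and enter no gene's value, except in 1 alternative.

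The probe set of highest mean signal stood for each gene. Arrays were set to 1 trimmed mean and signals raised to the floor of 104, and 12331 of 18193 genes passed it on at least 1 array. The steps were run on simulated arrays whose noise was set by choice, since no replicate measures it. That run checks the steps and not the folds reported here. Known folds were planted only in genes of mean signal at least 2 times the floor. Hbb-y, at a mean of 185, lay below that level. Calculations used Python 3.11.15, numpy 2.4.6 and pandas 2.3.3.

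The 5 genes and all lists were chosen with earlier results of these data known. Named are the 5 genes, list genes past 2-fold in GFP+++ against GFP-, up to 4 of the brightest genes of a red cell list, and the 3 nearest patterns for each of the 5. Other genes named, such as Gata1, Klf1, Nfe2, Tal1, Gfi1b, Rhd, Trim10, Hba-x, Hbb-bh1 and markers under the floor, were chosen after their values were seen. Alternatives were median scaling, quantile normalization, a 65th percentile floor, no floor, the median over probe sets, and leaving out _x_at and _s_at probe sets. A further one, with the shared alpha-globin probe sets in place of the one of Hba-a2, was added after the data were seen.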

Additional observations from a re-analysis of the deposited data

How the results depend on the processing

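No paired analysis was possible because each fraction has 1 array, and for the same reason no replicate could be left out. A fold is called moved here if it shifted by more than the pooled probe set SD, and a count if it shifted by over 1.5 times; the cause was not tested beyond what each setting changes by its construction. A changed or absent floor cannot reverse a direction, and without _x_at and _s_at probe sets Hbb-y had no value to compare. Within these limits, every fold of the 5 genes past 2-fold, 8 of 15, kept its direction in each setting that gave it a value. Of the smaller ones, Fech and Slc4a1 in GFP+ against GFP- (-0.10 and -0.02) were 0.04 and 0.12 with median scaling, Fech was 0.03 without _x_at and _s_at probe sets, and where Hba-a2 in GFP+++ against GFP+ was 0.44, the shared probe sets gave a value below 0. Hba-a2 in GFP+ against GFP- (-0.97) was at -1.03 with quantile normalization.

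Median scaling shifted the median log2 fold of all genes to 0.42 in GFP+++ against GFP-. Hba-a2 was then at -0.11 and Fech at -0.59, red cell list genes were 9 lower and 4 higher, in place of 17 and 1, and all genes 1129 higher against 1045 lower (48.1% lower in place of 86.6%). It gave 131 higher and 46 lower in GFP+ against GFP- (26.0% lower in place of 57.0%) and 416 higher in GFP+++ against GFP+ (64.8% lower in place of 90.5%). Quantile normalization gave 367 genes higher in GFP+++ against GFP-, 179 in GFP+++ against GFP+ (83.3% lower), and 2 red cell list genes higher.

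With the 65th percentile floor, Hbb-y was at 0.49 against GFP- and also 0.49 against GFP+, Alas2 at -1.22 against GFP-, and Slc4a1 at -0.47 against GFP- and -0.46 against GFP+, all as bounds. Red cell list genes were 11 lower and 0 higher. All genes were 152 higher and 746 lower in GFP+++ against GFP-, 40 and 38 in GFP+ against GFP-, and 71 and 526 in GFP+++ against GFP+. Without a floor, GFP+++ against GFP- gave 4.53 for Hbb-y, -3.70 for Alas2 and -3.13 for Slc4a1, GFP+ against GFP- gave 3.16 for Hbb-y, and GFP+++ against GFP+ gave -2.43 for Alas2 and -3.12 for Slc4a1. Red cell list genes were then 33 lower and 3 higher, and all genes 932 and 4082, 729 and 1459, and 996 and 3295 (higher and lower, in the order of comparisons above).

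The median over probe sets gave -1.48 for Slc4a1 against GFP- and -1.27 against GFP+, and 2 red cell list genes higher. Without _x_at and _s_at probe sets Slc4a1 was at -1.09 in GFP+++ against GFP-, -0.40 in GFP+ against GFP- and -0.69 in GFP+++ against GFP+, Hbb-y had no value, and 0 red cell list genes were higher. With the probe sets shared by Hba-a1 and Hba-a2 in place of the one of Hba-a2, the value was -1.64 in GFP+++ against GFP- and -0.89 in GFP+++ against GFP+.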
